A study of Mus musculus with 54 samples.

Results

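Il9 encodes interleukin-9, a cytokine that group 2 innate lymphoid cells (ILC2s) and T helper 9 cells secrete. It was followed as 1 gene of 10990 listed in the RNA tables of mouse small-intestinal ILC2s. The gene was chosen by its measured levels, above all that after 4 h with IL-25, so its levels and differences below are a description and carry no test. Every library was made with Smart-seq2, which reads whole transcripts from few cells, from cells of C57BL/6 mice aged 8 to 12 weeks, labelled as pooled male and female. The 4 listed Y-linked genes summed to at least 94.8 TPM in each of the 24 culture libraries. In the other table they summed to at least 93.4 TPM in 2 of 4 nILC2 KO, 3 of 4 nILC2 CTRL, 2 of 4 iILC2 KO and 3 of 4 iILC2 CTRL libraries, and to at most 0.59 TPM in the rest, which goes against pooling of both sexes there. Il9 was listed in 1 of 2 tables, so 24 of 40 libraries had a value.

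In the culture experiment, WT ILC2s were kept in IL-2 and IL-7 with IL-25 added, or in IL-2 and IL-7 without IL-25, for 4, 48 or 72 h, with 4 libraries in each of the 6 groups. The culture libraries with IL-25 therefore differed from those without it by that cytokine, while all 24 shared IL-2 and IL-7. In the genotype experiment, 4 libraries each came from nILC2 KO, nILC2 CTRL, iILC2 KO and iILC2 CTRL cells. The series text gives the KO as Rxrg-/- (Rxrg encodes retinoid X receptor gamma), while the deposited table is named cKO, and all 16 libraries are labelled IL-25 and 48h. What the prefixes n and i stand for is not given in the labels. Nothing in the labels says that libraries of 1 group came from separate animals or cultures, so the spread among them may be technical in the culture groups. The genotype groups each held libraries with and without Y-linked RNA, so their libraries were not all from the same animals. Values are TPM (a share of transcripts corrected for gene length), so a library's read depth is unknown.

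IL-9 acts through a receptor made of IL-9R and the common gamma chain, which signals through JAK1 and JAK3 to STAT3 and STAT5. In ILC2s it is known as an autocrine survival and growth signal, and in the gut it supports mast cells, mucus production and defence against worms. In T helper 9 cells of mice, transcription of Il9 is driven by PU.1, IRF4 and BATF together with STAT factors, and in ILC2s IL-25 and IL-33 feed into it beside IL-2 and IL-7.

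Il9 lies on chromosome 13 from 56479277 to 56482257 on the minus strand (GRCm38.p6). Its promoter is shown because the level of the gene differed so widely between groups. The RefSeq sequence of the 250 bases before its start, chr13:56482258-56482507, minus strand, is given 5′ to 3′ with a match to the AP-1 motif TGANTCA in capitals.
Il9 promoter: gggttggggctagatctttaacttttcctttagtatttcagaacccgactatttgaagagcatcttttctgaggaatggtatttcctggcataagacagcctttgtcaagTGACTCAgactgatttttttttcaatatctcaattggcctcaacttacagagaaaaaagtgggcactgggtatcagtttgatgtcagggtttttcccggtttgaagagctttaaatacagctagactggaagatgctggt
AP-1 is the factor family of the JUN, FOS and BATF proteins. On both strands, 6.75% of 32851 promoters in the same table, cut to the same length, held that motif. The Il9 stretch had no match to TATAAA (held by 12.4% of promoters), AGATAA for GATA factors (9.99%), TTCNNNGAA for STAT factors (7.02%) or GAAANNGAA for IRF factors (7.13%). Nor did it match GGAAGT for ETS factors and PU.1 (19.7%), TGGAAA for NFAT (18.6%), GGANNTTCC for the RelA dimer of NF-kB (3.59%) or AGGTCA for nuclear receptors (14.0%). These counts describe the exact letters given, in this window. They say nothing about other forms of these sites, which were not searched, or about binding.

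At 4 h, Il9 was the most abundant of all listed genes in every library with IL-25. It stood at 17015.56, 17964.78, 13636.02 and 16492.38 TPM with IL-25, and at 383.53, 345.87, 846.95 and 475.15 TPM without IL-25. The groups did not overlap, and the lowest library with IL-25 was 16.1-fold above the highest library without it. The means were 16277 ± 1863 TPM with IL-25 and 512.9 ± 229 TPM without IL-25 (SD, n = 4 each), a ratio of 31.7. On the log2(TPM + 1) scale the difference was 5.07 (SE 0.48, from a spread shared by all 6 groups), the highest of the 10548 genes compared. The next highest was that of Il22, the gene of an epithelium-protecting cytokine, at 3.51.

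The rank of Il9 among the 10799 listed genes was 1 in all 4 libraries with IL-25 at 4 h, and 149 to 372 in the 4 libraries without it. No mitochondrial gene was listed, so unlisted transcripts could stand above Il9. The most abundant other gene in each of these IL-25 libraries was Eef1a1, a translation factor gene, at 9168.4 to 9711.81 TPM. Il9 thus took 1.82% ± 0.21 of the listed TPM with IL-25 and 0.0579% ± 0.0258 without IL-25 (SD, n = 4 each). Even without IL-25, Il9 was a well expressed gene at this time, above Il5 in each of the 4 libraries by 1.12- to 1.72-fold.

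**Figure D1:**
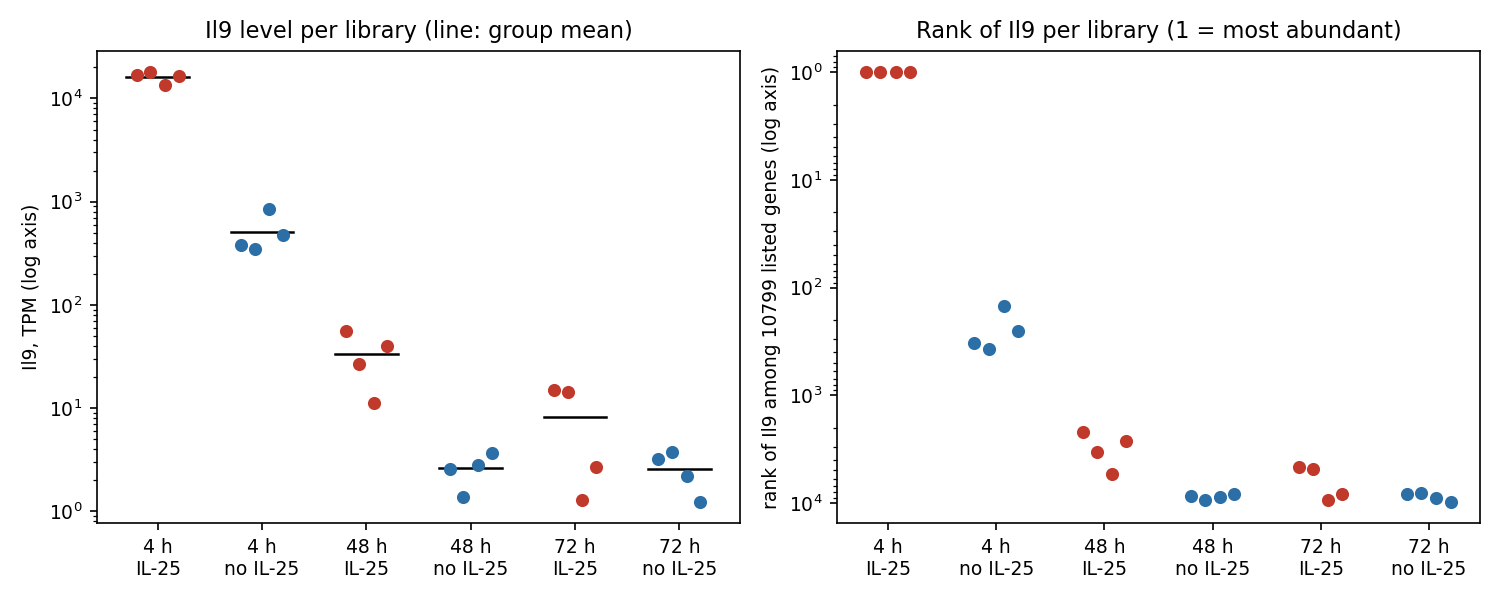
Il9 in the 24 culture libraries, 1 point per library, red with IL-25 and blue without, as TPM on a log axis with a line at the group mean (left) and as its rank among the 10799 listed genes, 1 being the most abundant (right). All 4 libraries with IL-25 at 4 h have rank 1, and the groups at 72 h overlap.

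At 48 h, Il9 was far lower in both arms, yet it still differed between them. It stood at 55.62, 26.65, 11.26 and 40.41 TPM with IL-25, and at 2.60, 1.37, 2.81 and 3.64 TPM without IL-25. Every library with IL-25 lay above every library without it, the lowest by 3.09-fold over the highest. The means were 33.48 ± 19.0 TPM with IL-25 and 2.605 ± 0.938 TPM without IL-25 (SD, n = 4 each), a ratio of 12.9 and a log2 difference of 3.09 (SE 0.48). This difference was the 41st highest of the genes compared, whereas Il10 had the highest, at 7.60. Ranks were 2219 to 5390 with IL-25 and 8204 to 9491 without IL-25.

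At 72 h, the arms overlapped. Il9 stood at 14.98, 14.24, 1.29 and 2.67 TPM with IL-25, and at 3.24, 3.72, 2.20 and 1.24 TPM without IL-25. A pair of IL-25 libraries lay above all those without IL-25, and the other pair lay within their range. The means were 8.295 ± 7.32 TPM with IL-25 and 2.600 ± 1.11 TPM without IL-25 (SD, n = 4 each), and the log2 difference of 0.96 (SE 0.48) ranked 560th. That SE rests on all 6 groups, whereas the SD of log2(TPM + 1) at 72 h was 1.43 with IL-25 and 0.481 without IL-25. Ranks were 4644 to 9501 with IL-25 and 8159 to 9755 without IL-25.

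Between 48 h and 4 h, Il9 differed more than almost any other gene, with IL-25 and without it. With IL-25, it averaged 33.48 TPM at 48 h, against 16277 TPM at 4 h, which is 486-fold lower, and the lowest library at 4 h was 245-fold above the highest at 48 h. The log2 difference of -9.08 (SE 0.48) was the lowest of all 10548 genes, followed by Il22 at -7.75. Without IL-25, it averaged 2.605 TPM at 48 h, against 512.9 TPM at 4 h, which is 197-fold lower. That log2 difference of -7.10 (SE 0.48) was the second lowest, after Calca, the gene of the neuropeptide CGRP, at -7.59. Between 72 h and 48 h, the log2 difference was -2.15 (SE 0.48) with IL-25, the third lowest, with overlapping groups, and -0.02 (SE 0.48) without IL-25. The shared SE understates the spread with IL-25 here, as the groups with IL-25 at 48 h and 72 h had the largest SDs.

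**Figure D2:**
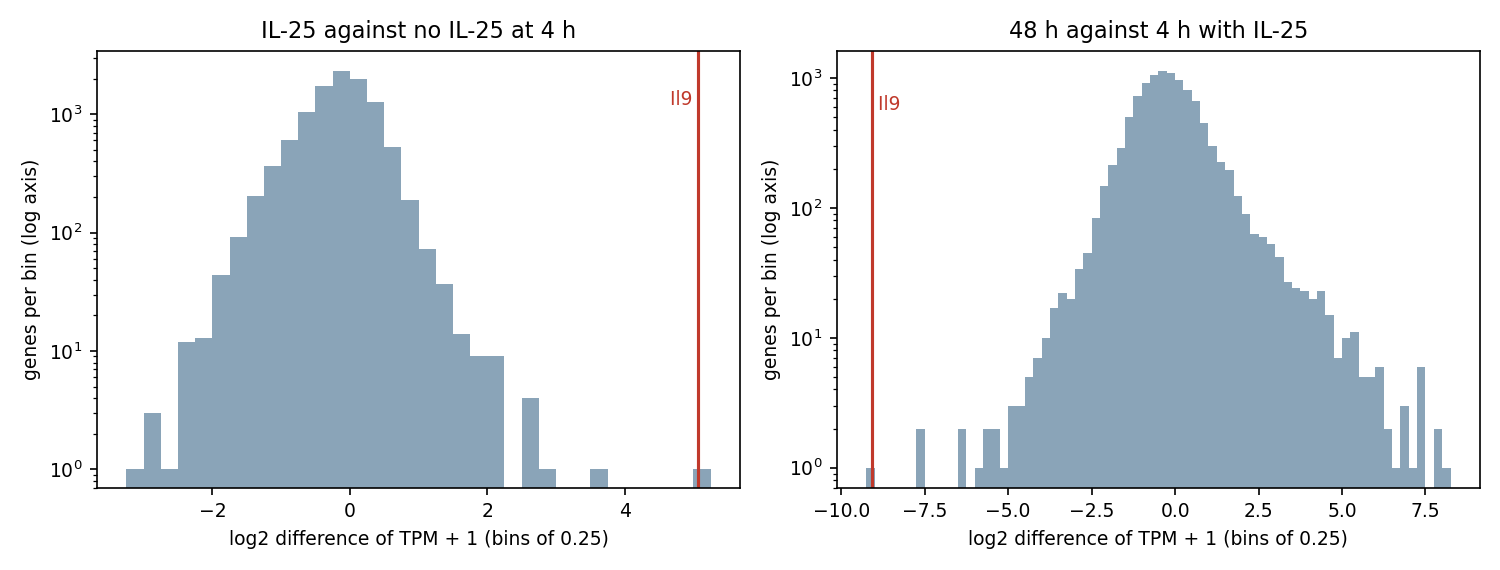
Number of genes per 0.25-wide bin of the log2 difference, on a log axis, for IL-25 against no IL-25 at 4 h (left) and 48 h against 4 h with IL-25 (right), 10548 genes each. The red line marks Il9, at 5.07 on the right edge of the left panel and at -9.08 on the left edge of the right panel.

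Ordered by mean level, the 6 groups ran from 4 h with IL-25, through 4 h without, 48 h with and 72 h with IL-25, to 48 h without and 72 h without IL-25. The first 2 steps separated groups with no overlap, by 31.7-fold and 15.3-fold in the means. The other neighbours overlapped: 48 h and 72 h with IL-25 (means apart by 4.04-fold), 72 h with and 48 h without IL-25 (3.18-fold), and the arms without IL-25 at 48 h and 72 h. The effect of IL-25 on Il9 was smaller at 48 h than at 4 h by 1.98 on the log2 scale (SE 0.68), and smaller at 72 h than at 48 h by 2.13 (SE 0.68).

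With IL-25, libraries of 1 group differed more in Il9 at the later times. With IL-25, the SD of log2(TPM + 1) was 0.173 at 4 h, and it was 0.955 at 48 h and 1.43 at 72 h. Without IL-25 it was 0.576, 0.408 and 0.481 at the same times. Over all genes compared, the median SD within these groups was between 0.180 and 0.204. The highest library exceeded the lowest by 1.32-fold in the 4 h group with IL-25, by 4.94-fold in the 48 h group and by 11.6-fold in the 72 h group. Replicate 3 was the lowest library in each IL-25 group and the highest at 4 h without IL-25, while the labels do not say what a shared number means.

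Among cytokine genes, the share of Il9 was far lower after 4 h. Of the summed TPM of 19 listed cytokine genes, Il9 made up 71.7% to 76.3% at 4 h with IL-25, against 8.13% to 17.6% without IL-25. At 48 h it made up 0.417% to 1.80% with IL-25, against 0.211% to 0.595% without IL-25. At 72 h the shares were 0.0357% to 0.356% with IL-25 and 0.151% to 0.454% without IL-25. Il9 exceeded Il5, the gene of the eosinophil growth factor IL-5, by 7.62- to 8.63-fold at 4 h with IL-25. At 72 h with IL-25 it was at 0.000483 to 0.00483 of the Il5 level.

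The IL-25 response of Il5 and Il13, type 2 cytokine genes, was called at every time. Il5 averaged 2034 ± 218 TPM with IL-25 and 360.3 ± 87.7 TPM without IL-25 at 4 h (SD, n = 4 each), a log2 difference of 2.52 (limma adjusted p = 1.4e-12), and its difference was 3.48 at 48 h and 3.96 at 72 h (adjusted p = 3.7e-16 and 2.6e-17). Il13, the gene of a mucus and smooth muscle cytokine, rose by 2.64, 3.01 and 3.39 at 4, 48 and 72 h (limma adjusted p = 5.3e-15, 1.8e-17 and 1.5e-18). Il4 was lower with IL-25 at 4 h and 48 h (log2 differences of -0.33 and -0.63, adjusted p = 0.026 and 7.6e-05) and did not pass at 72 h (-0.07, adjusted p = 0.66). The fall of Il4 at 4 h had overlapping groups and was lost under median-of-ratios scaling (adjusted p = 0.24) and without any 1 of 3 libraries, replicate 1 of the group without IL-25 or replicate 1 or 2 with IL-25 (adjusted p = 0.075 to 0.12).

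Other genes shared the early course of Il9. Il22 averaged 392.8 ± 124 TPM with IL-25 and 34.49 ± 15.8 TPM without IL-25 at 4 h (adjusted p = 2.1e-05), and 1.355 ± 2.36 and 0.720 ± 0.272 TPM at 48 h (adjusted p = 0.96; SD, n = 4 each). Il6 and Tnf, genes of inflammatory cytokines, rose with IL-25 at 4 h (1.44 and 1.17, adjusted p = 4.4e-05 and 3.9e-06) and fell with it at 48 h (-1.21 and -1.81, adjusted p = 0.00023 and 1.5e-09). Between 48 h and 4 h with IL-25, Il5 did not pass (0.05, adjusted p = 0.77) and Il13 rose by 0.41 (adjusted p = 0.0014).

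**Figure D3:**
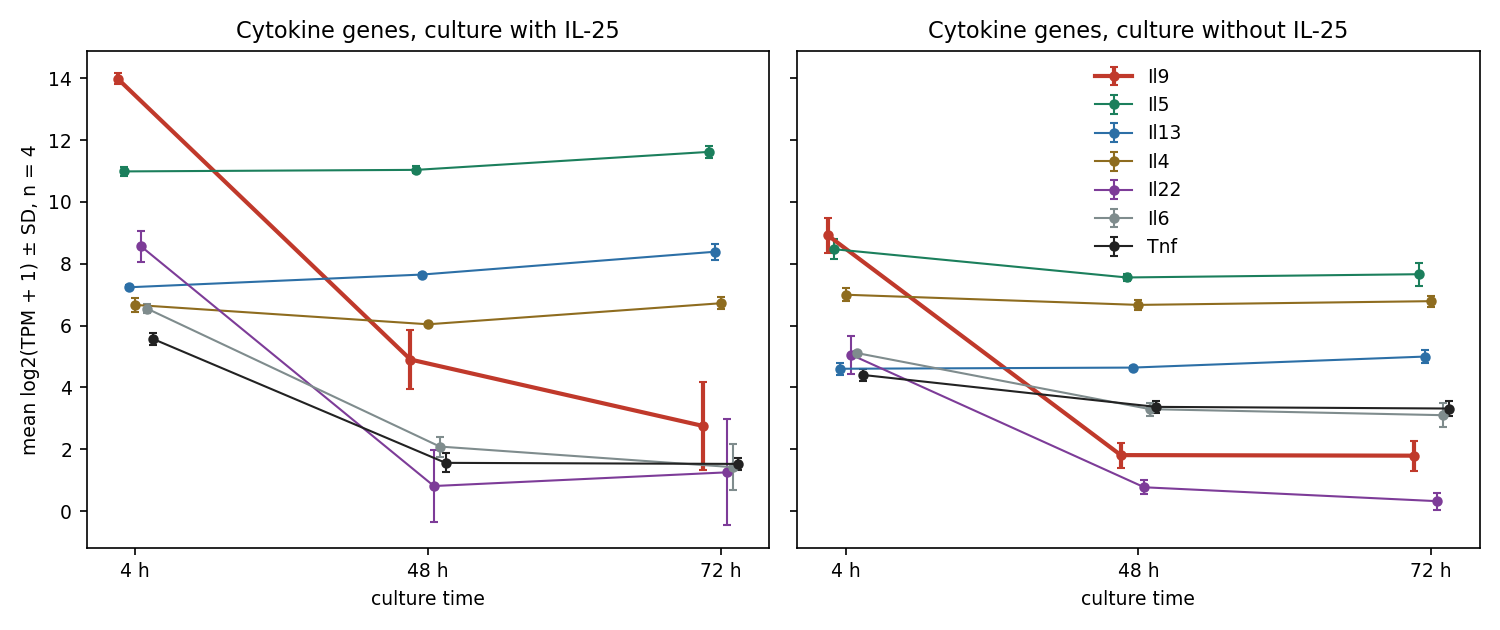
Mean log2(TPM + 1) ± SD (n = 4 libraries) of Il9 and 6 other cytokine genes at 4, 48 and 72 h, with IL-25 (left) and without (right). Il9 starts highest of the 7 and drops below Il5, Il13 and Il4 by 48 h in both arms.

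The 16 cytokine genes tested beside Il9 came from a list of 22. With IL-25, 7 were called higher and 1 lower at 4 h, 4 higher and 6 lower at 48 h, and 5 higher and 6 lower at 72 h. A gene is called at an adjusted p under 0.05 (Benjamini-Hochberg over all genes tested). The share called among all genes was 40.3% at 4 h (13.4% higher and 26.9% lower), 50.1% at 48 h (21.4% and 28.7%) and 48.5% at 72 h (15.3% and 33.2%). The medians of all genes were -0.119, -0.0931 and -0.196 at these times. Rescaling by the median of ratios gave 2232 higher and 2096 lower genes at 4 h, against 1415 and 2835 before. The corresponding split was 2651 and 2150 at 72 h, against 1610 and 3503 before. Directions close to these medians are thus relative.

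Among the factors that act on Il9, the genes Irf4, Batf, Jun, Junb, Stat5a and Stat5b were called higher with IL-25 at 4 h. Irf4, an activator of Il9 in mouse T helper 9 cells, stood at 233.46, 212.56, 250.87 and 244.96 TPM with IL-25, and at 97.15, 127.18, 92.49 and 91.27 TPM without IL-25 at 4 h. The groups were apart, with a log2 difference of 1.21 (adjusted p = 9.1e-07), which was 2.37 at 48 h (21.86 ± 1.51 against 3.465 ± 0.731 TPM, SD, n = 4, adjusted p = 3e-12) and 1.35 at 72 h (adjusted p = 1.1e-07). Batf, whose protein pairs with IRF4 at composite sites, rose by 1.31, 1.27 and 1.01 (adjusted p = 4.3e-11, 2.2e-11 and 2e-09). Junb, an AP-1 subunit, rose by 0.73, 0.85 and 1.08 (adjusted p = 5.8e-06, 3.1e-07 and 8e-09).

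Other activators did not keep their difference over time. Stat5a, which carries IL-2 and IL-7 signals, averaged 172.5 ± 13.5 TPM with IL-25 and 68.78 ± 4.51 TPM without IL-25 at 4 h (SD, n = 4 each, 1.31, adjusted p = 2.3e-07), and did not pass at 48 h and 72 h (0.33 and -0.19, adjusted p = 0.083 and 0.33). The call at 48 h was gained under median-of-ratios scaling and after quantile normalization (adjusted p = 0.011 and 0.0024), and without replicate 3 of the group without IL-25 or replicate 4 with IL-25 (adjusted p = 0.012 and 0.016). The AP-1 gene Jun rose by 1.48 at 4 h (adjusted p = 5.7e-07), did not pass at 48 h (0.28, adjusted p = 0.22, and 0.032 after quantile normalization) and rose by 0.46 at 72 h (adjusted p = 0.042). The 72 h call of Jun was lost without any 1 of 6 libraries, all but replicate 1 without IL-25 and replicate 2 with IL-25 (adjusted p = 0.05 to 0.17), and in a fit of these groups alone (adjusted p = 0.052). The NF-kB gene Rel rose by 1.09 at 4 h, fell by 0.58 at 48 h and did not pass at 72 h (-0.26; adjusted p = 1.7e-06, 0.002 and 0.14). Relb and Nfkb2, genes of the noncanonical NF-kB arm, rose at 4 h (0.76 and 0.79) and fell at 48 h (-1.93 and -1.42) and 72 h (-1.66 and -1.47), with adjusted p between 7.7e-11 and 6.3e-05 at 4 h and 72 h, and 3.7e-12 and 4.7e-09 at 48 h. The other NF-kB subunit genes, Rela and Nfkb1, went the other way at 4 h (-0.64 and -0.28, limma adjusted p = 4.5e-05 and 0.025). Both were also called lower at 48 h and 72 h. Their calls were not checked under the alternative settings.

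Other regulators were lower with IL-25 at 1 or more times. Gata3, the factor of ILC2 identity, averaged 555.7 ± 59.5 TPM with IL-25 and 611.3 ± 42.6 TPM without IL-25 at 4 h (SD, n = 4 each, adjusted p = 0.14, and 0.0053 after quantile normalization), and fell by 1.29 at 48 h and by 0.74 at 72 h on the log2 scale (adjusted p = 2.7e-13 and 1.1e-08). Etv5, an ETS factor gene, fell by 1.05 at 4 h (adjusted p = 4.6e-05) and rose by 1.09 at 48 h (adjusted p = 1.7e-05). Nfatc1, a calcium-regulated factor gene, fell by 0.93 at 4 h and Rxrg by 1.85 (adjusted p = 4e-06 and 8e-08). Bhlhe40, which supports cytokine production by T cells, fell by 3.06 at 48 h (adjusted p = 1e-12). Spi1, the gene of PU.1, was listed in neither table.

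Of 42 tested regulators from a list of 45, 11 were called higher and 10 lower at 4 h, 9 and 18 at 48 h, and 12 and 14 at 72 h. The share called was 50%, 64.3% and 61.9%, against 40.3%, 50.1% and 48.5% of all genes. The median of the list was 0.00468, -0.185 and -0.0922 at these times. Rescaling by the median of ratios gave 13 higher and 7 lower at 4 h, and 15 and 12 at 72 h. Between 48 h and 4 h, 35 of the 42 were called with IL-25 (72.2% of all genes) and 32 without IL-25 (64.4%). In these comparisons Irf4 fell by 3.37 with IL-25 and by 4.53 without it, and Stat5a by 3.51 and 2.52 (adjusted p of 5.4e-13 or less each), while Batf fell by 0.37 and 0.34 (adjusted p = 0.00092 and 0.0028).

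**Figure D4:**
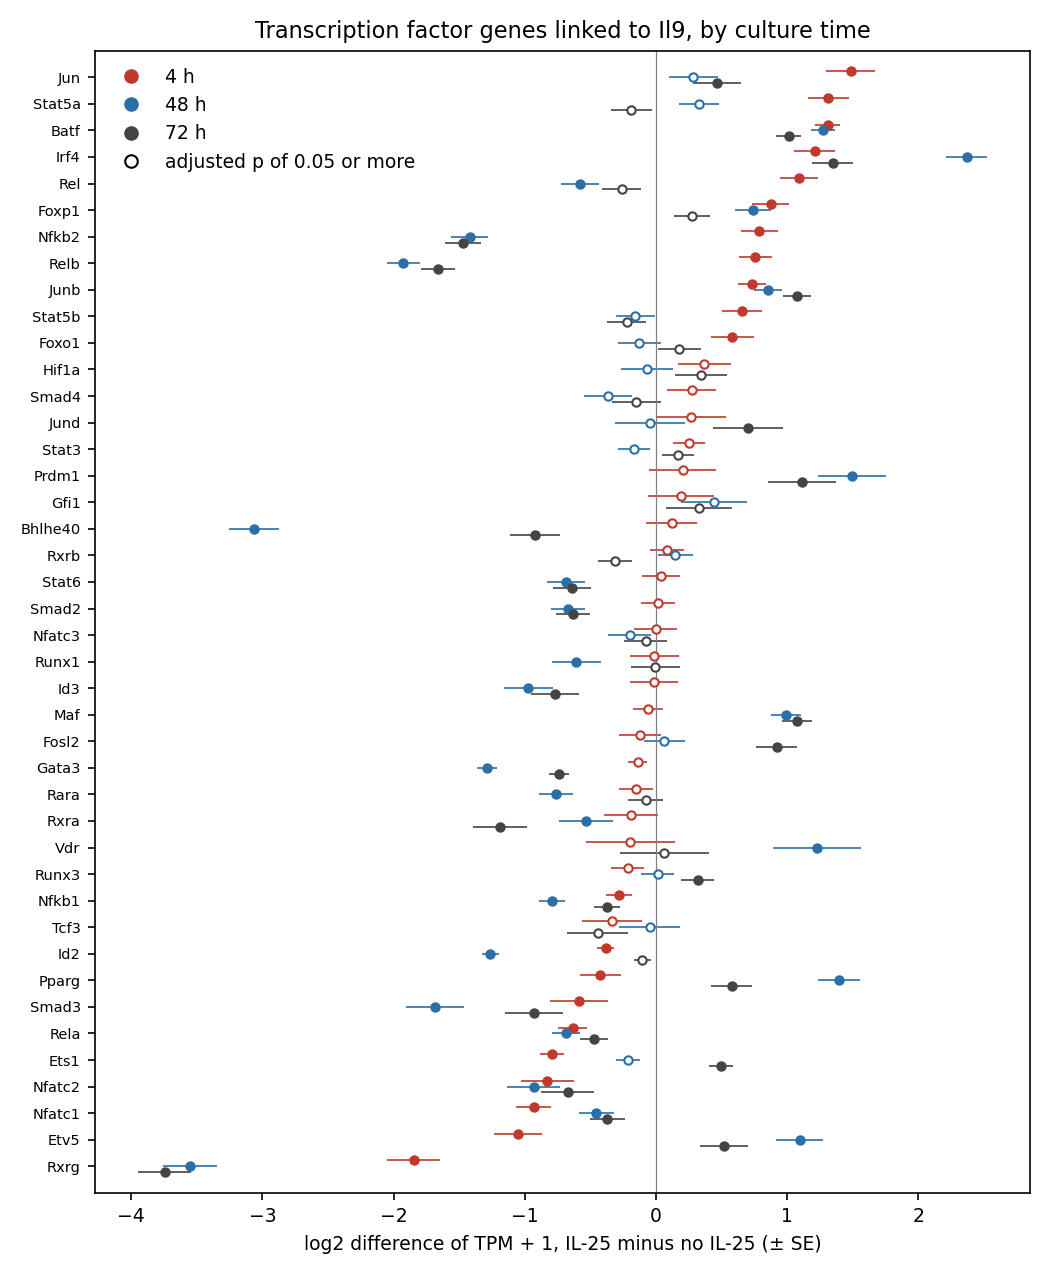
Log2 differences of TPM + 1 between IL-25 and no IL-25 (± SE) for the 42 tested regulator genes at 4 h (red), 48 h (blue) and 72 h (grey), in the order of their 4 h value. Filled points have an adjusted p under 0.05. Irf4, Batf and Junb are filled and right of 0 at each time, and Relb, Nfkb2 and Rel are right of 0 at 4 h and left of it later.

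The gene of the IL-9 receptor ran against its ligand at 4 h. Il9r stood at 7.33, 6.96, 6.42 and 7.92 TPM with IL-25, and at 20.91, 27.09, 17.26 and 19.73 TPM without IL-25. The groups did not overlap (log2 difference -1.43, adjusted p = 2.2e-09). Il9r averaged 21.24 ± 2.09 TPM with IL-25 and 30.02 ± 3.04 TPM without IL-25 at 48 h (-0.48, adjusted p = 0.003), and 27.84 ± 1.01 and 34.13 ± 5.90 TPM at 72 h (-0.27, adjusted p = 0.084; SD, n = 4 each). The 72 h call was gained without replicate 1 of the group without IL-25 (adjusted p = 0.024).

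Il2rg, the common gamma chain shared with the IL-2 and IL-7 receptors, fell by 0.23, 1.66 and 1.41 at 4, 48 and 72 h (adjusted p = 0.015, 1.2e-15 and 2.9e-14). Its 4 h call was lost under median-of-ratios scaling (adjusted p = 0.43), and without replicate 3 of the group without IL-25 or replicate 2 with IL-25 (adjusted p = 0.07 and 0.059). Cish, a feedback inhibitor induced by STAT5, averaged 272.3 ± 17.9 TPM with IL-25 and 281.4 ± 16 TPM without IL-25 at 4 h (SD, n = 4 each, adjusted p = 0.57, and 0.036 after quantile normalization), and fell by 0.95 and 0.32 at 48 h and 72 h (adjusted p = 2.1e-12 and 0.00014). The fall at 72 h was lost under median-of-ratios scaling (adjusted p = 0.24). Socs3, a feedback inhibitor of STAT3 signals, rose by 1.52 at 48 h and 2.86 at 72 h (adjusted p = 5.9e-09 and 4.1e-14).

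Bcl3, a target of IL-9 in mouse cells, rose by 1.60 and 1.77 at 48 h and 72 h (adjusted p = 5.1e-09 and 1e-09), and Bcl2, a survival gene, fell by 1.99, 3.59 and 2.55 at 4, 48 and 72 h (adjusted p = 5.6e-13, 5.2e-19 and 4.3e-16). Of 17 tested genes of IL-9 signalling from a list of 18, 4 were higher and 7 lower at 4 h, 3 and 9 at 48 h, and 3 and 8 at 72 h. Under median-of-ratios scaling these counts were 6 and 5 at 4 h, and 5 and 4 at 72 h. The list's medians were -0.0927, -0.385 and -0.270. Before this rescaling, the share called was 64.7%, 70.6% and 64.7%, against 40.3%, 50.1% and 48.5% of all genes.

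Receptors upstream of Il9 moved in both directions with IL-25. Il17rb, the IL-25 receptor subunit, fell by 1.19, 2.72 and 3.44 at 4, 48 and 72 h (adjusted p = 1.4e-10, 5e-18 and 4.2e-20). Il2ra, the IL-2 receptor alpha chain, rose by 1.21, 1.52 and 1.01 (adjusted p = 9.2e-10, 4.7e-12 and 1e-08). Il7r, the IL-7 receptor, did not pass at 4 h (-0.07, adjusted p = 0.79) and fell by 1.45 and 2.69 at 48 h and 72 h (adjusted p = 2.6e-07 and 4.2e-12). Of 22 tested receptor and adaptor genes, 3 were called higher and 5 lower at 4 h, 2 and 10 at 48 h, and 5 and 4 at 72 h. The share called was 36.4%, 54.5% and 40.9%, near the 40.3%, 50.1% and 48.5% of all genes. The list's medians were -0.0885, -0.267 and -0.122.

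The effect of IL-25 on several of these genes changed with time. Between 48 h and 4 h, 27.9% of all genes had a called difference of effects. It was 1.16 for Irf4, -1.15 for Gata3, -0.99 for Stat5a and 0.95 for Il9r (adjusted p = 0.00024, 5.9e-09, 0.0012 and 0.00023). Between 72 h and 48 h, 14.7% of all genes had one, Irf4 among them at -1.02 (adjusted p = 0.0022).

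Around the Il9 locus, the nearest listed gene was Fbxl21, an F-box protein gene 40.1 kb away. It stood at 69.88, 71.95, 58.20 and 77.96 TPM with IL-25, and at 19.59, 14.62, 14.81 and 17.47 TPM without IL-25 at 4 h. The groups were apart, with a log2 difference of 2.00 (adjusted p = 7.7e-10). At 48 h and 72 h it was lower with IL-25 by 1.42 and 1.84 on the log2 scale (adjusted p = 1.1e-07 and 1.6e-09). With IL-25, Fbxl21 averaged 5.582 ± 1.29 TPM at 48 h, against 69.50 ± 8.27 TPM at 4 h (SD, n = 4 each, log2 difference -3.44, adjusted p = 2.8e-15). Without IL-25 it averaged 16.65 ± 3.52 TPM at 48 h, against 16.62 ± 2.37 TPM at 4 h (-0.01, adjusted p = 0.96). Il9 thus differed from Fbxl21 in the arm without IL-25, where Il9 was 197-fold lower at 48 h.

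The reference annotation held 58 gene models within 1 Mb of Il9, of which the culture table listed 15 and 14 were tested. At 4 h, Fbxl21 was the 1 neighbour called higher and 5 were called lower, among them B4galt7, a proteoglycan enzyme gene, and Caml, a calcium signalling gene (-0.87 and -0.65, adjusted p = 8.5e-07 and 0.00079). The counts were 1 higher and 5 lower at 48 h, and 3 higher and 7 lower at 72 h. The share of neighbours called was 42.9%, 42.9% and 71.4% at 4, 48 and 72 h, against 40.3%, 50.1% and 48.5% of all genes. Smad5, a BMP signal factor gene 221 kb away, fell by 0.62 at 48 h (adjusted p = 0.0015). Its difference was 0.31 at 4 h (adjusted p = 0.11) and -0.46 at 72 h (adjusted p = 0.016). Median-of-ratios scaling gained the 4 h call of Smad5 and lost that at 72 h (adjusted p = 0.018 and 0.18), as did quantile normalization (adjusted p = 0.0094 and 0.29) and leaving out replicate 3 with IL-25 at the same time (adjusted p = 0.041 and 0.056). Under median-of-ratios scaling 4 neighbours were higher and 3 lower at 4 h, and 3 and 3 at 72 h.

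Genes with the course most like that of Il9 were sought by Pearson's r of log2(TPM + 1) over the 24 culture libraries, among 7313 genes. The most alike were Ccr4, a chemokine receptor gene (r = 0.984), St6galnac4, a sialyltransferase gene (0.982), Utf1, a chromatin factor gene known from embryonic stem cells (0.982), Kif3b, a kinesin gene (0.979), Myc, a growth regulator (0.979), Nr4a1, an immediate early nuclear receptor gene (0.979), Tma16, a ribosome assembly gene (0.977), and Rrn3, an RNA polymerase I factor gene (0.977). The libraries fall into 6 groups, so r mostly reflects the group means, and 555 genes had r over 0.9. The order depends on the measure: by Spearman's rho, which uses ranks, St6galnac4 alone of these 8 stayed in the top 8, and Ccr4 was at place 317. Ccr4 averaged 837.5 ± 48.0 TPM with IL-25 and 202.3 ± 12.6 TPM without IL-25 at 4 h, 66.30 ± 9.17 and 34.04 ± 6.36 TPM at 48 h, and 30.76 ± 4.19 and 29.62 ± 1.04 TPM at 72 h (SD, n = 4 each). Nr4a1 averaged 169.6 ± 20.8 TPM with IL-25 and 42.10 ± 12.9 TPM without IL-25 at 4 h, and 4.550 ± 1.21 and 1.418 ± 0.561 TPM at 48 h (SD, n = 4 each). Both genes had the group order of Il9 at 4 h and 48 h, over a narrower range. That shared order largely follows from choosing them by r over the same libraries.

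The course most opposite to Il9 was that of Clic1, an ion channel family gene (r = -0.983), followed by Coro1b and Dpysl2, cytoskeletal genes (-0.982 and -0.977), and Rcbtb2 (-0.977). Clic1 averaged 269.6 ± 5.26 TPM with IL-25 and 429.6 ± 14.5 TPM without IL-25 at 4 h, and 676.9 ± 12.4 and 963.7 ± 78.3 TPM at 48 h (SD, n = 4 each). After the group means were removed, the highest r was 0.663, for Rnf166, followed by Mtx1 (0.652), Psme2b (0.641), Dnajc1 (0.639) and Polr3g (0.635). None of the 8 most alike genes was among these, and over all 24 libraries the r of Rnf166 was -0.417. Whether these values, the highest of 7313, exceed chance was not tested. They cannot be set beside the r over all libraries, which mostly reflects the group means.

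**Figure D5:**
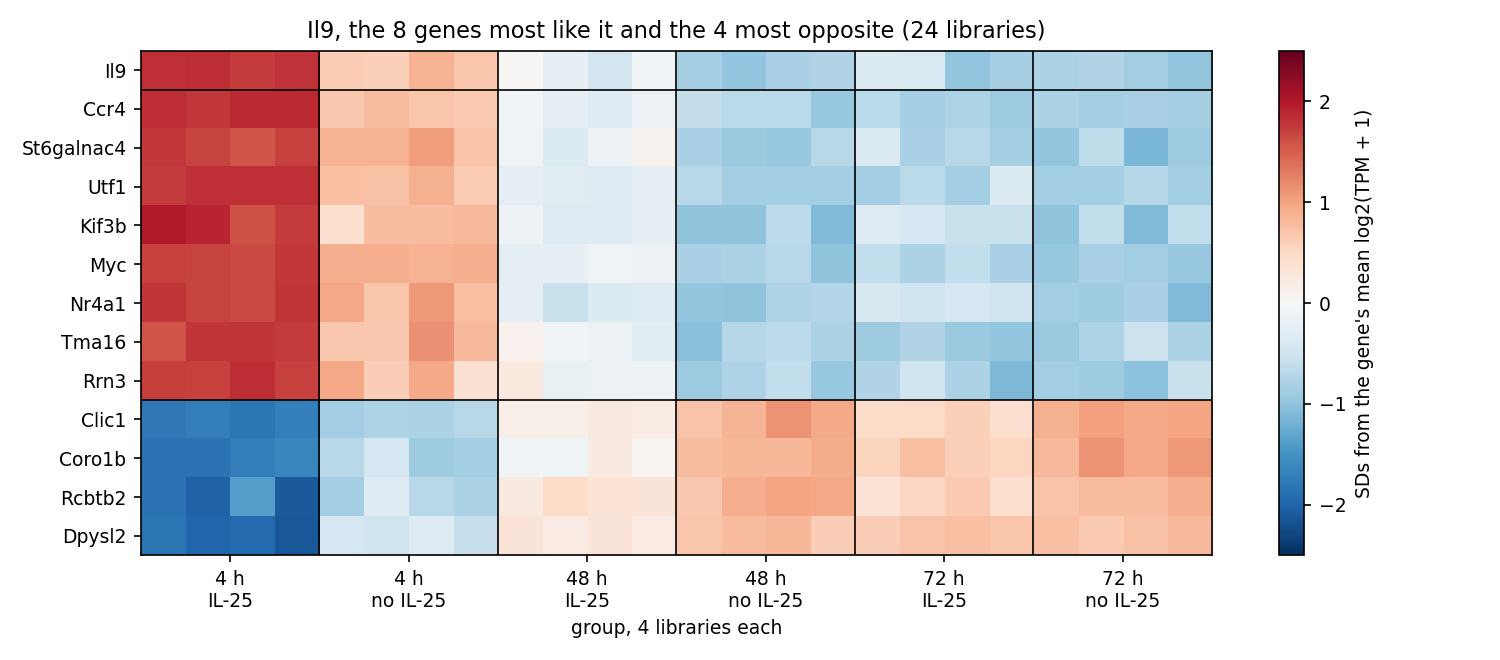
Level of Il9, the 8 genes most like it and the 4 most opposite over the 24 culture libraries, as SDs from each gene's mean log2(TPM + 1), red above and blue below, with 4 libraries per group. Il9 and the 8 genes are highest at 4 h with IL-25 and next highest at 4 h without it, and the 4 opposite genes are lowest there.

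In the genotype experiment, Il9 was not among the 10176 listed genes of the 16 libraries, so no level and no effect of Rxrg on Il9 is given. The authors' rule for listing a gene is not stated. The lowest mean over the 16 libraries of any listed gene was 0.162 TPM, and the lowest in the culture table was 0.0292 TPM. Il22, Il10, Csf2 and Il2 were likewise listed in the culture table and not here. Rxrg, as a check of the labels, averaged 2.182 ± 0.826 TPM in nILC2 KO and 15.07 ± 3.29 TPM in nILC2 CTRL, and 0.280 ± 0.207 TPM in iILC2 KO and 1.622 ± 0.25 TPM in iILC2 CTRL (SD, n = 4 each). The KO and CTRL libraries did not overlap within nILC2 (log2 difference -2.35, adjusted p = 1.2e-05) or within iILC2 (-1.04, adjusted p = 0.44).

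Il9r was listed in all 16 libraries. It stood at 46.50, 42.91, 45.64 and 45.96 TPM in iILC2 CTRL, and at 32.94, 31.78, 36.91 and 25.04 TPM in nILC2 CTRL. The groups did not overlap (log2 difference 0.51, adjusted p = 0.0063), in a comparison where 45.5% of all genes were called. By contrast Il2rg, its partner chain, fell by 0.83 (adjusted p = 2.7e-07), and 9 of 16 signalling genes were called lower and 2 higher. Il9r averaged 26.96 ± 6.41 TPM in nILC2 KO and 31.67 ± 4.93 TPM in nILC2 CTRL (-0.24, adjusted p = 0.37), and 43.90 ± 3.09 TPM in iILC2 KO and 45.25 ± 1.60 TPM in iILC2 CTRL (-0.04, adjusted p = 1; SD, n = 4 each).

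Of 41 regulators tested here, 8 were called higher and 18 lower in iILC2 CTRL than in nILC2 CTRL. Of the 22 cytokine genes of the list, 11 were tested here, with 0 called higher and 9 lower. The share called was 63.4% and 81.8%, against 45.5% of all genes (2204 higher and 2378 lower). Irf4 averaged 7.892 ± 1.59 TPM in iILC2 CTRL and 11.57 ± 5.40 TPM in nILC2 CTRL (SD, n = 4 each, adjusted p = 0.22). Il5 averaged 2.728 ± 0.810 and 32.33 ± 5.64 TPM in the same groups (SD, n = 4 each, log2 difference -3.17, adjusted p = 8.9e-10).

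In nILC2, 1.54% of all genes, or 155, were called between KO and CTRL. This count was 5 in a fit of the nILC2 libraries alone, and between 12 (without replicate 4 of nILC2 CTRL) and 1003 (without replicate 1 of nILC2 KO) when 1 library was left out. Among the regulators, Rxrg itself, Gata3 (-0.37, adjusted p = 0.038) and Id2, an inhibitor of E proteins with overlapping groups (-0.55, adjusted p = 0.029), were lower in KO. Il17rb (-0.45, adjusted p = 0.034) was the 1 receptor gene and Ccl1, a chemokine gene (-1.75, adjusted p = 0.0098), the 1 cytokine gene called. The calls of Gata3, Id2, Il17rb and Ccl1 were lost in a fit of the nILC2 libraries alone (adjusted p = 0.2, 0.14, 0.19 and 0.12). Without any 1 of 6 libraries, all but replicate 2 of nILC2 CTRL and replicate 1 of nILC2 KO, the calls of Gata3 and Id2 were lost, with adjusted p between 0.059 and 0.12 for Gata3 and between 0.052 and 0.1 for Id2. With a term for Y-linked expression, which differed in number of libraries between KO and CTRL, the call of Gata3 was lost (-0.36, adjusted p = 0.059) and 87 genes were called. The call of Il17rb was lost without replicate 3 or 4 of either nILC2 group (adjusted p = 0.082 to 0.12). In iILC2, 0% of all genes were called by limma (328 of 10069 at an unadjusted p under 0.05).

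Markers of ILC2s and of other cells were read beside Il9. All 10 ILC2 markers were listed, with a summed level of 2076 to 2420 TPM with IL-25 and 2383 to 2601 TPM without IL-25 at 4 h. They summed to 1824 to 2030 TPM with IL-25 and 2547 to 2904 TPM without IL-25 at 48 h, and to 3031 to 3167 and 2841 to 3241 TPM at 72 h. Of 6 markers of ILC1, NK cells or ILC3, 4 were listed. Their sum was 0.34 to 1.65 TPM with IL-25 and 1.46 to 3.17 TPM without IL-25 at 4 h, 0.43 to 0.77 and 5.56 to 9.37 TPM at 48 h, and 0.11 to 0.31 and 4.64 to 11.2 TPM at 72 h. Of 10 T cell markers, 2 were listed in the culture table (Cd3e and Cd3g), summing to 15.9 to 25.5 TPM with IL-25 and 28.9 to 35.3 TPM without IL-25 at 4 h. They summed to 24 to 29 TPM with IL-25 and 82.4 to 129 TPM without IL-25 at 48 h, and to 30.8 to 42.2 TPM with IL-25 and 96 to 114 TPM without IL-25 at 72 h. Of 9 mast cell markers, Hdc alone was listed, at 0.66 to 2.72 TPM with IL-25 and 1.12 to 4.03 TPM without IL-25 at 4 h, and Cpa3, Mcpt1, Mcpt2 and Fcer1a were not listed. Of 4 B cell markers, Cd79b alone was listed, at 12.3 to 19.5 TPM with IL-25 and 25.2 to 30.1 TPM without IL-25 at 4 h. Cd79b was higher with IL-25 later, at 71.3 to 91.5 TPM against 43.5 to 49.8 TPM without IL-25 at 48 h, and at 132 to 157 TPM against 37.6 to 47.1 TPM at 72 h. The epithelial markers Epcam and Krt18 summed to 87.7 to 99.8 TPM with IL-25 and 171 to 186 TPM without IL-25 at 4 h, to 35.1 to 40.5 and 95.9 to 113 TPM at 48 h, and to 51.5 to 61.5 and 68 to 88.1 TPM at 72 h. The part of other cells in the level of Il9 was not tested, and in bulk samples fewer cells with Il9 cannot be told apart from less Il9 RNA per cell.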

How the data were processed

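RNA was profiled in 40 libraries. The values are TPM as deposited by the authors, in separate tables of 24 culture and 16 genotype libraries. Per the submitters' processing notes, the build was mm10 and the tools were RSEM 1.3.3, STAR 2.7.5c and cutadapt 2.10, beside tools such as deepTools 3.5.0 and Bowtie2 2.2.5 whose role is not stated. The listed rows held 873200 to 898025 TPM in a culture library and 849733 to 886670 TPM in a genotype library. TPM keeps no depth, so no counting error is given. The DNA libraries of the series were not used here.

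The model was fitted per table by limma 3.58.1 under R 4.3.3, using eBayes with trend = TRUE after lmFit, on log2(TPM + 1), a scale that understates changes of low genes. A gene was tested if 4 or more libraries held 1 TPM or more, which 10548 and 10069 did, with Benjamini-Hochberg adjustment of the p-values across them all. On simulated data with 100 genes changed by 1 on the log2 scale, the fit called 95 for IL-25 at 4 h (10548 genes) and 89 for KO in nILC2 (10069 genes). It also called 15 and 9 unchanged genes. The simulated noise was independent, with 1 SD per gene for all groups, and only better expressed genes were changed. The real groups differ in spread, so these counts need not hold for the real libraries or for low genes. Labels with the same replicate number share no stated source. Of all pairs of groups, nILC2 KO and iILC2 KO were the 1 pair in which every same-numbered pair of libraries had an r of deviations over 0.1 (lowest 0.102), the limit set for pairing, and no comparison of these groups is reported. In the other pairs of genotype groups, replicate 4 had an r of -0.0443 to 0.049 and the lower-numbered replicates 0.0554 to 0.253. The genotype p-values treat libraries as unpaired, so a source shared by replicate number is not accounted for.

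Il9, the gene lists and the tests were chosen with earlier results of these data known. Named genes were 13 key genes, up to 6 called members per list with a mean of at least 10 TPM and no overlap, the genes most like or opposite to Il9, and all neighbours within 1 Mb. Not every gene the rule covers is named. Genes named outside that rule, such as Etv5, Id2 and Calca, were chosen after their values were seen. Coordinates and the promoter are from RefSeq (GRCm38.p6, the assembly of mm10). Alternatives were a pseudocount of 0.1 TPM, no filter, a filter of 5 TPM, the median of ratios, quantile normalization, removal of the most abundant genes, a fit of the compared groups alone, a replicate block, a term for Y-linked expression (genotype libraries with a sum of 5 TPM or more) and leaving out each library.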

Additional observations from a re-analysis of the deposited data

Results flagged for a closer look

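Over 13 genes, 126 groups of 4 libraries were searched for a library far from the other 3 of its group (Dixon's test), which chance gives in about 1 in 20 groups, and 8 were found. Replicate 3 without IL-25 at 4 h, the library with the highest Il9 of its group, was also far above the others in Il5, at 491.52 TPM with the next at 323.27 TPM. Irf4 was high in replicate 2 of that group, at 127.18 TPM (next 97.15 TPM), and in replicate 3 with IL-25 at 72 h, at 9.30 TPM (next 6.63 TPM). Stat5a was low in replicate 4 without IL-25 at 4 h, at 62.10 TPM (next 70.32 TPM). Cish was high in replicate 1 with IL-25 at 72 h, at 162.24 TPM, and Il17rb in replicate 4 with IL-25 at 4 h, at 172.91 TPM. Batf was high in replicate 4 of iILC2 KO, at 258.55 TPM, and Il2ra low in replicate 2 of nILC2 CTRL, at 48.71 TPM.

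The effect of IL-25 differed between times for 14 of the results examined (limma, adjusted over all genes, log2 scale). Between 48 h and 4 h the rise of Irf4 was larger by 1.16 (adjusted p = 0.00024) and that of Il5 by 0.96 (adjusted p = 0.00072), while for Il9r, lower with IL-25 at both times, the difference of effects was 0.95 (adjusted p = 0.00023). It was -1.15 for Gata3, -0.99 for Stat5a, -1.43 for Il2rg, -0.91 for Cish and -1.52 for Il17rb (adjusted p = 5.9e-09, 0.0012, 6.7e-11, 1.2e-08 and 9.7e-10). Between 72 h and 48 h it was -1.02 for Irf4, -0.72 for Il17rb and -0.50 for Il2ra (adjusted p = 0.0022, 3e-04 and 0.019). It was 0.55 for Gata3, 0.63 for Cish and 0.56 for Il4 (adjusted p = 0.00078, 1.4e-05 and 0.022).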

How the results depend on the processing

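No alternative turned the sign of the Il9 differences between IL-25 and no IL-25, or of those between 48 h and 4 h. Quantile normalization, which by construction gives the top gene of every library 1 shared value, brought the Il9 difference to 4.35 at 4 h, to -8.36 between 48 h and 4 h with IL-25, and the difference of these effects to -1.10. Leaving out 1 library gave 4.91 to 5.34 at 4 h, 2.78 to 3.52 at 48 h and 0.54 to 1.48 at 72 h. Between 72 h and 48 h without IL-25, where the difference was -0.02, it gave -0.21 to 0.19. The neighbours called at 72 h numbered 6 with the median of ratios, against 10. For KO against CTRL in nILC2, 155 genes were called, against 82 with a pseudocount of 0.1 TPM, 272 with the median of ratios, 87 with a term for Y-linked expression, 5 with the compared groups alone and 12 to 1003 with 1 library left out. With the replicate block, 317 genes were called, with 1 signalling gene against 0, 2 receptor genes against 1 and 2 cytokine genes against 1. Il9 at 4 h stayed at 5.07 with this block. Between the nILC2 groups, same-numbered libraries had an r of deviations of 0.125 to 0.187 for replicates 1 to 3 and -0.0443 for replicate 4. The labels do not say whether these libraries pair. With the compared groups alone, 1 regulator, 0 receptor genes and 0 cytokine genes were called, and quantile normalization gave 3 receptor and 2 cytokine genes. Leaving out 1 library gave 1 to 7 regulators, 0 to 4 signalling genes, 0 to 7 receptor genes, 1 to 2 cytokine genes and 0 to 1 neighbours. The causes were not tested. By Spearman's rho, 1 of the 8 genes most like Il9 was the same. Of 3358 values for named genes, 66 lost a call, 19 gained one and 0 turned sign while called before or after the change. Sign changes of genes called in neither fit were not counted. TPM without read counts leaves low levels, such as Il9 at 72 h, without a counting error.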
